A study of Homo sapiens with 10 samples.

Results

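The imprinted DLK1-DIO3 domain on human chromosome 14 holds one of the largest clusters of microRNA (miRNA) genes, and 55 mature miRNAs of that cluster, chosen by name, were followed among 2565 human miRNA probes on each array. The samples were HuH-7, an established hepatocellular carcinoma cell line. One group of 5 arrays came from cultures exposed to 1.0 µM lenvatinib, an oral inhibitor of VEGF and FGF receptor kinases, over 96 h, and the control group of 5 arrays came from cultures left without it over the same 96 h. All 10 arrays were single-colour Toray 3D-Gene arrays read in Cy5, and the study asked which miRNAs are tied to the antitumour action of lenvatinib. The extraction label names serum although every other label names cultured cells. The labels do not tell if arrays within a group stem from independent cultures, so the p-values cover the spread among arrays alone, and that spread may be technical. With array data of total RNA, fewer cells carrying a miRNA and less of it per cell cannot be told apart.

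In the DLK1-DIO3 domain the protein-coding genes DLK1, RTL1 and DIO3 are active on the paternal chromosome, whereas the noncoding genes MEG3, MEG8 and MEG9 and the miRNA hairpins between them are active on the maternal one. The hairpins are processed from long noncoding transcripts that run through the locus in 1 direction, and the miRNAs opposite RTL1 can pair perfectly with its transcript. The cluster is known for expression in placenta, brain and stem cells and for low expression in adult liver, with raised levels in a subset of liver cancers. In RefSeq annotation of GRCh38.p14, DLK1 lies at chr14:100726892-100738224, MEG3 at chr14:100826108-100861026, RTL1 at chr14:100879753-100903722 and DIO3 at chr14:101561495-101563452.

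RefSeq held a mature sequence for 54 of the 55 members. The sequences on which the results below turn are given 5′ to 3′ with the seed, bases 2 to 8, in capitals. The near copies of miR-1185-1-3p, miR-487b-3p and miR-487b-5p stand beside these members, because a short probe may read both.
hsa-miR-1185-1-3p: aUAUACAGggggagacucuuau
hsa-miR-1185-2-3p: aUAUACAGggggagacucucau
hsa-miR-487b-3p: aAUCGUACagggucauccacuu
hsa-miR-487a-3p: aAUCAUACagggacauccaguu
hsa-miR-487b-5p: gUGGUUAUcccuguccuguucg
hsa-miR-487a-5p: gUGGUUAUcccugcuguguucg
hsa-miR-377-5p: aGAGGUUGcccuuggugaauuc
hsa-miR-656-5p: aGGUUGCCugugagguguuca
hsa-miR-494-3p: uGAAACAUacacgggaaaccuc
hsa-miR-370-3p: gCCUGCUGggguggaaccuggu

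All 10 lie on the plus strand of chromosome 14 in GRCh38.p14. The mature miR-1185-1-3p is at chr14:101043029-101043050 and its near copy miR-1185-2-3p at chr14:101044250-101044271, in neighbouring hairpins that none of MEG3, RTL1, MEG8, MIR381HG or MEG9 spans. Counted from the 5′ end, they differ at 1 base, U20C, and share their seed with no further member. Both arms of the MIR487B hairpin, miR-487b-5p at chr14:101046469-101046490 and miR-487b-3p at chr14:101046505-101046526, lie within the noncoding gene MIR381HG. MiR-487b-3p differs from miR-487a-3p at 3 bases, G5A in the seed and U13A and C20G outside it. MiR-487b-5p differs from miR-487a-5p at U14C, C15U and C16G, and their seeds are the same. Near the distal end of the cluster, miR-377-5p is at chr14:101062056-101062077 and miR-656-5p at chr14:101066731-101066751. Their related arms, miR-485-5p and miR-410-5p in that order, are not printed above. Each differs from its relative at 4 bases, 1 of them in the seed. MiR-494-3p, at chr14:101029681-101029702, and miR-370-3p, at chr14:100911186-100911207 within MEG8, are shown because their probes stood above every negative control spot on all 10 arrays.

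The arrays of the groups differed in overall brightness, and this bears on every member. Blank spots, which carry no probe, averaged 62.2 to 85.5 intensity units on lenvatinib arrays and 30.9 to 34.6 on control arrays, a ratio of the group means of 2.04. Taken over the miRNAs detected on every array, the median was higher by 1.35 on the log2 scale on lenvatinib arrays, and the 2 kinds of spike control spot by 1.21 and 1.26. Blank level and treatment cannot be told apart, because the groups did not overlap in it. A probe counts as detected where the deposited background-subtracted intensity is not empty, that is where its raw brightness exceeded the array's blank mean by more than 2 SD. The hepatocyte marker miR-122-5p had a background-subtracted intensity of 7246 to 9778 on lenvatinib arrays and 2815 to 3424 on control arrays. By limma after normalization, 3 of 4 hepatocyte markers were higher with lenvatinib, miR-122-5p by 0.35, miR-192-5p by 0.45 and miR-194-5p by 0.59 on the log2 scale, and miR-885-5p was lower, at -1.22 (adjusted p = 0.000121). The summed intensity of 3 erythroid markers was 8.07 to 41.2 against 9.26 to 14.4, that of 3 leukocyte and platelet markers 0 to 32.1 against 5.81 to 10.7, and that of 3 muscle markers 0 to 20.7 against 5.28 to 12.03. In each of these sums the lenvatinib arrays come first. Of these 9 probes, 6 were tested and 0 passed by limma, with 1 at an unadjusted p under 0.05. Of 4 stromal markers, 0 passed by limma and 0 had an unadjusted p under 0.05 (summed 226 to 390 on lenvatinib arrays and 86.0 to 108 on control arrays), and of 4 neural markers, miR-137 alone passed, upward, in a list that summed to 122.7 to 375 on lenvatinib arrays and 121 to 151 on control arrays. By the same rule, 12.1% of all 1346 probes tested were higher and 9.36% lower, so 0 calls in lists this short say little. The part of these markers in the results below was not tested.

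Most of the cluster was dim or undetected in this liver cancer line. Of the 55 members, 12 (21.8%) were detected on all 10 arrays, against 33.8% of all probes. Another 12 (21.8%) were detected on no array, against 25% of all probes, and 20 on 1 to 4 arrays. The members detected nowhere were miR-493-5p, miR-136-3p, miR-1197, miR-323a-3p, miR-543, miR-376c-3p, miR-376b-3p, miR-889-3p, miR-496, miR-377-3p, miR-369-3p and miR-656-3p. Their median GC content was 37.2%, against 54.5% for the 11 members detected on all arrays that have a RefSeq sequence, and whether base composition affects detection on this array was not tested.

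The number of members detected did not separate the groups. It was 20, 31, 24, 31 and 16 on lenvatinib replicates 1 to 5, and 24, 24, 20, 27 and 21 on control replicates 1 to 5. The lenvatinib arrays thus spanned a wider range that took in all the control values. The means were 24.4 ± 6.66 on lenvatinib arrays and 23.2 ± 2.77 on control arrays (SD, n = 5 each), a difference of 1.2 that is smaller than either SD. As shares, 29.1% to 56.4% of the members were detected on lenvatinib arrays and 36.4% to 49.1% on control arrays. The shares of all probes were 47.1% to 58.4% and 48.0% to 60.3%. Lenvatinib replicate 5, with the brightest blanks, detected the fewest members and also the fewest of all probes, 1209. With 1 raw limit for all arrays, set at that array's own limit of 92.1, the counts were 2, 2, 3, 2 and 16 on the lenvatinib arrays and 1 on each control array, so the larger difference of 4 rests on lenvatinib replicate 5. No member was detected on all arrays of one group and on none of the other.

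Negative control spots set a further yardstick for these dim signals. Of the 32 negative control spots on each array, 21.9% to 31.3% passed the detection rule on lenvatinib arrays and 21.9% to 37.5% on control arrays. The brightest of them stood 13.3 to 29.8 units over the blanks on lenvatinib arrays and 5.00 to 7.19 units on control arrays. Counted above that spot, members numbered 2, 8, 5, 11 and 5 on lenvatinib replicates 1 to 5, and 6, 10, 5, 11 and 10 on control replicates 1 to 5. Only 2 members, miR-494-3p and miR-370-3p, cleared it on all 10 arrays, and 37 of the 55 cleared it on none. How many of all probes on the array cleared it was not counted. These counts therefore describe the members alone and do not set the cluster apart from other miRNAs.

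**Figure D1:**
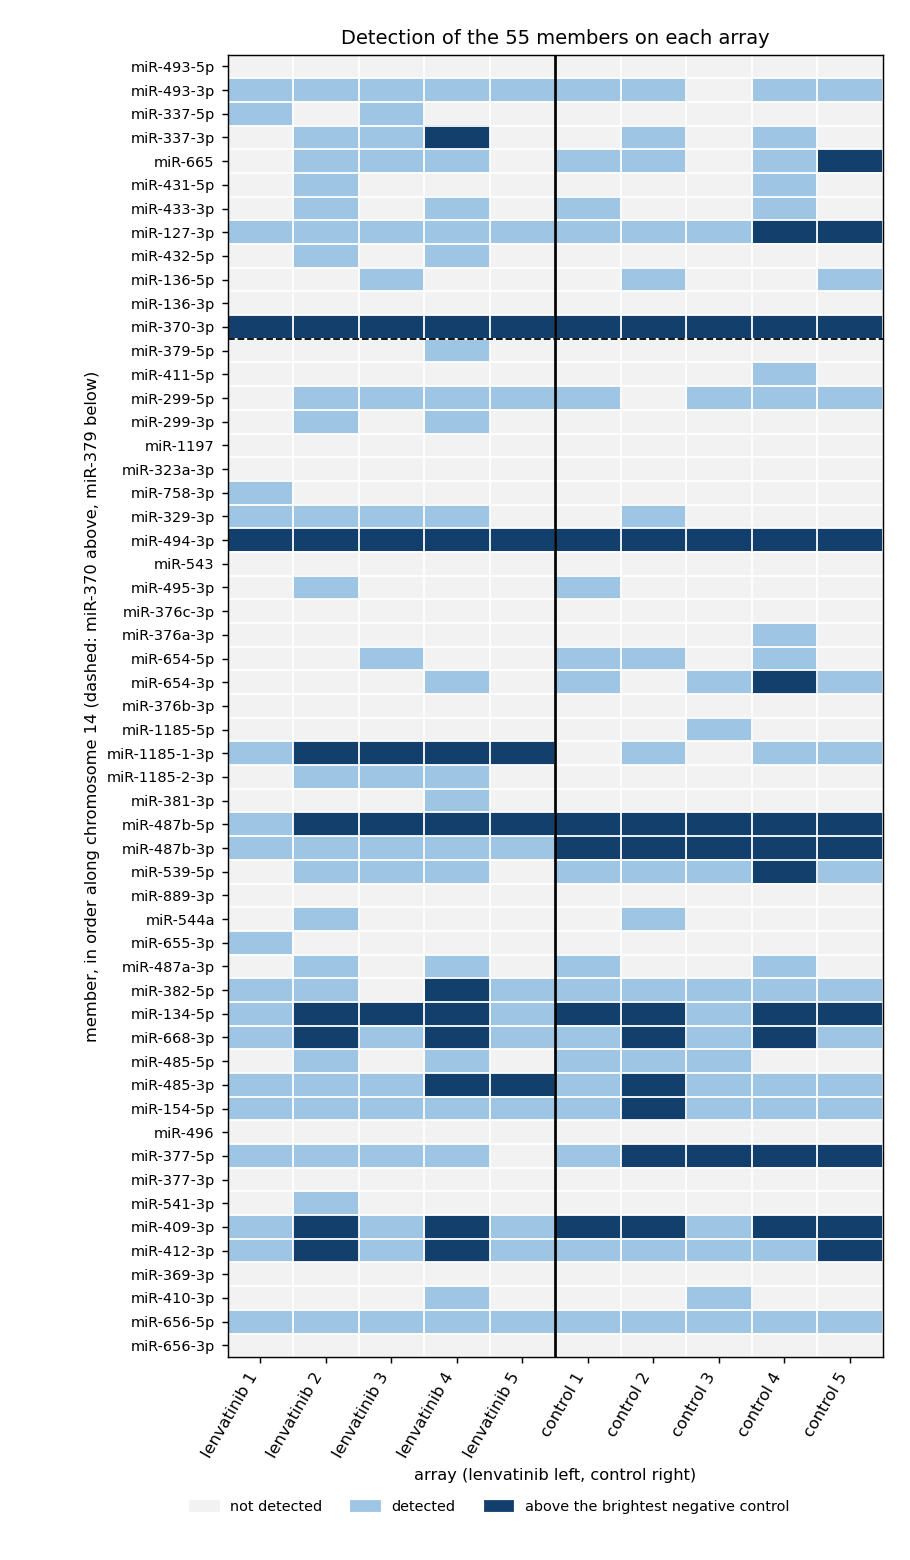
Each row is 1 of the 55 members, in order along chromosome 14, and each column 1 array, with the 5 lenvatinib arrays left of the 5 control arrays. Pale grey marks a member not detected, light blue one detected and dark blue one above the brightest negative control spot of that array. MiR-494-3p and miR-370-3p are dark in every column, while 12 members are grey throughout.

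The comparison of lenvatinib with control used background-subtracted intensities that were quantile normalized on the log2 scale, so a change is relative to the bulk of the miRNAs. Of the 55 members, 23 were detected on at least 5 of the 10 arrays and were tested. With limma, 1 of them was higher and 4 were lower with lenvatinib at an adjusted p under 0.05, and 18 did not pass. Of all 1346 probes tested, 12.1% were higher and 9.36% were lower by the same rule, against 4.35% and 17.4% of the tested members. The median log2 change of the 23 was -0.16, against -0.03 for all probes tested, with 16 members below 0 and 7 above. The 5 lenvatinib values lay wholly above the 5 control values for 1 member, against 11.1% of all probes tested, and wholly below them for 3 members, against 8.84%.

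By place along the locus, calls and medians are given as a description, with no test of the difference between places. Of the 12 members from miR-493 to miR-370, which include the miRNAs opposite RTL1, 5 were tested and 0 passed by limma, also 0 at an unadjusted p under 0.05, with changes of -0.23 to 0.50 and a median of -0.04. All 5 members past the threshold came from the 43 between miR-379 and miR-656, of which 18 were tested, with a median of -0.27. Over the whole array, 12.1% of all 1346 probes tested were higher by limma and 9.36% lower. Against these shares, 0 calls among 5 tested members say little and do not set the places apart. By arm, the median was -0.39 over 9 tested 5p members and -0.04 over 13 tested 3p members.

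**Figure D2:**
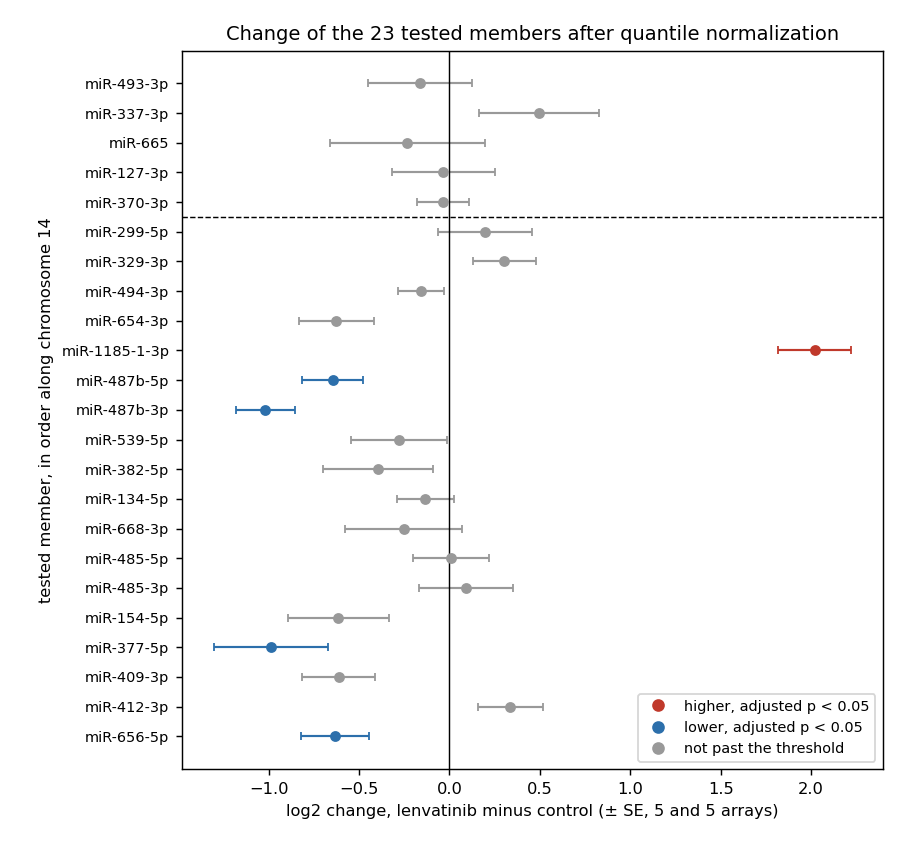
Log2 change, lenvatinib minus control, of the 23 tested members in order along chromosome 14 (points, with SE bars, 5 arrays in each group). MiR-1185-1-3p stands at 2.02, the 4 members past the threshold downward lie between -1.02 and -0.63, and the other 18 are drawn in grey.

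MiR-1185-1-3p was the member that rose. Its background-subtracted intensity was 19.0, 20.7, 28.6, 20.02 and 31.5 on lenvatinib replicates 1 to 5. On the control arrays it was 2.64 on replicate 2, 2.04 on replicate 4 and 3.46 on replicate 5, and it was not detected on replicates 1 and 3. Every lenvatinib value was thus above every control value, before as well as after normalization. It stood above the brightest negative control on 4 lenvatinib arrays and on 0 control arrays. Normalized values averaged 3.89 ± 0.21 with lenvatinib and 1.87 ± 0.41 in control (log2, SD, n = 5 each), where the 2 undetected control values are held at the floor given to undetected probes. The log2 change was 2.02 ± 0.20 (SE, limma adjusted p = 0.000124), or 4.05-fold, a fold that rests on the floor given to undetected control values. The size depends on the handling of dim signals: it was 0.27 with normexp background correction and an offset of 50, and 0.27 to 2.66 over the 25 alternatives in which it was tested, all of which kept the call. The same offset is added in each normexp fit given below, and it shrinks the log2 changes of dim probes by construction. Leaving out any 1 array gave 1.94 to 2.20.

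The other products of the MIR1185 hairpins gave little signal. MiR-1185-2-3p, 1 base away and with the same seed, was detected on lenvatinib replicates 2, 3 and 4 at 7.63, 8.27 and 10.1 and on no control array. It was therefore not tested, and on the lenvatinib arrays where it was detected it did not clear the brightest negative control. MiR-1185-5p, whose sequence is encoded in both hairpins, was detected on 1 control array and on no lenvatinib array. How far the miR-1185-1-3p and miR-1185-2-3p probes read each other's miRNA was not tested.

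Both arms of MIR487B were lower with lenvatinib relative to the bulk. MiR-487b-3p, reported to repress WNT5A and MYC in lung cells, had intensities of 9.31, 9.71, 11.4, 10.3 and 17.0 on lenvatinib replicates 1 to 5 and 8.85, 8.19, 8.90, 9.18 and 11.5 on control replicates 1 to 5. These deposited intensities overlapped and were not lower with lenvatinib: the member stayed near its control level on arrays whose median miRNA was brighter. After normalization the groups no longer overlapped, at 2.84 ± 0.22 with lenvatinib and 3.86 ± 0.26 in control (log2, SD, n = 5 each). The log2 change was -1.02 ± 0.16 (SE, limma adjusted p = 0.000915), so control was 2.03-fold higher. The probe cleared the brightest negative control on 0 lenvatinib arrays and on 5 control arrays. The call held in 26 of 27 alternatives, and it was lost with no scaling, where the change was 0.28. With normexp correction the change was -0.17 (adjusted p = 0.00245).

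MiR-487b-5p, the opposite arm, had intensities of 15.4, 17.6, 24.9, 14.97 and 26.1 on lenvatinib replicates 1 to 5 and 13.2, 13.5, 11.5, 13.3 and 8.88 on control replicates 1 to 5. Before normalization every lenvatinib value was above every control value. After it the groups overlapped, at 3.61 ± 0.29 with lenvatinib and 4.25 ± 0.22 in control (log2, SD, n = 5 each). Its log2 change of -0.65 ± 0.17 (SE, limma adjusted p = 0.0180) turned to 0.69 with no scaling (adjusted p = 0.00983). Its call held in 25 of 27 alternatives, the other loss being scaling to the spike controls (-0.54, adjusted p = 0.0681). Normexp correction gave -0.14.

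The MIR487A arms, close in sequence, did not pass. MiR-487a-5p, which shares the seed of miR-487b-5p, was detected on all 10 arrays, at 19.3 to 35.7 on lenvatinib arrays and 10.4 to 13.7 on control arrays, and its log2 change was -0.38 ± 0.14 (SE, limma adjusted p = 0.0680). MiR-487a-3p was detected on 2 lenvatinib and 2 control arrays and was not tested. Whether the MIR487B and MIR487A probes share signal was not tested.

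The calls of the 2 other members past the threshold were less stable. MiR-656-5p was the sole arm of its hairpin to be detected, miR-656-3p being detected on no array. Its intensities were 8.93, 6.33, 6.20, 5.33 and 9.67 on lenvatinib replicates 1 to 5 and 4.88, 4.22, 4.78, 4.52 and 4.54 on control replicates 1 to 5, below the brightest negative control on all 10 arrays. The lenvatinib values were all above the control values before normalization and overlapped them after it. MiR-656-5p changed by -0.63 ± 0.19 on the log2 scale (SE, limma adjusted p = 0.0326), and 15 of 26 alternatives kept the call. It was lost on leaving out any 1 of 6 arrays, lenvatinib replicates 2, 3 or 4 or control replicates 1, 3 or 5. Changes lay between -0.75 and -0.53 over all 10 such fits. The call was also lost with normexp correction (-0.06), no background correction, no scaling and no filter. Setting undetected values below the lowest detected value lost it too.

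MiR-377-5p, opposite the undetected miR-377-3p, had intensities of 10.2, 11.4, 11.4 and 11.5 on lenvatinib replicates 1 to 4 and was not detected on lenvatinib replicate 5, which the fit took at the floor. Control replicates 1 to 5 had 6.04, 14.1, 7.50, 7.96 and 5.37, replicate 2 lying apart from the others. After normalization all lenvatinib values lay below all control values, at 2.63 ± 0.56 with lenvatinib and 3.62 ± 0.56 in control (log2, SD, n = 5 each). The log2 change was -0.99 ± 0.31 (SE, limma adjusted p = 0.0436). The call held in 9 of 25 alternatives. Of the fits without 1 array, only that without control replicate 5 kept it. The change was -0.73 without lenvatinib replicate 5 (adjusted p = 0.0682) and -0.75 without control replicate 2 (adjusted p = 0.0791).

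**Figure D3:**
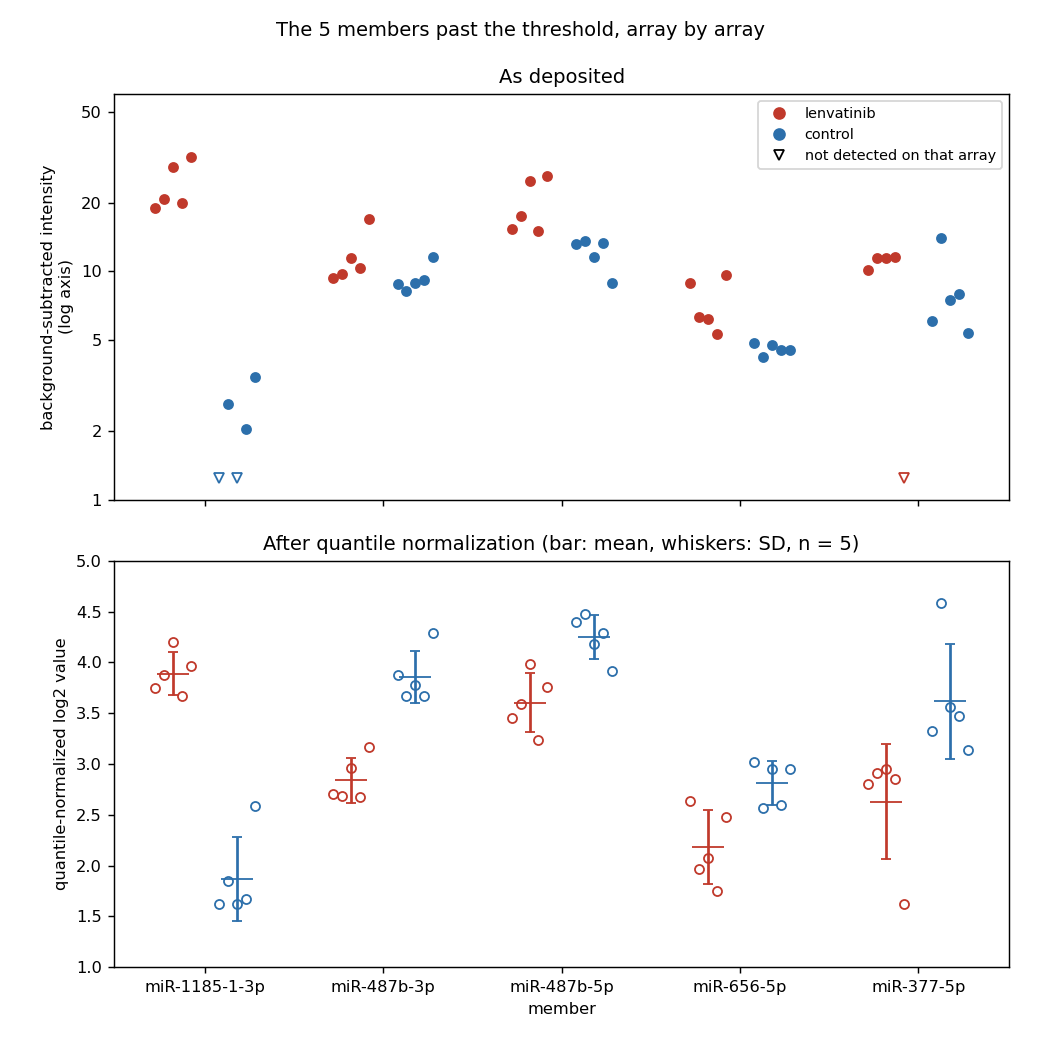
The 5 members past the threshold on each array, lenvatinib left of control for each member. The upper panel shows the deposited background-subtracted intensity on a log axis, with open triangles at an arbitrary height for arrays where the member was not detected. The lower panel shows the quantile-normalized log2 values with the mean and SD (n = 5). MiR-1185-1-3p is higher with lenvatinib in both panels, whereas for the other 4 only the lower panel puts the lenvatinib mean below the control mean.

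The direction of the lower members depended on whether the arrays were put on a common scale. All 4 stayed below 0 in every alternative that tested them except no scaling, which leaves in the brightness difference between the groups. With no scaling, 10 tested members passed upward and 0 downward by limma, against 1 and 4 in the main comparison, and 920 and 2 of all 1346 probes tested, with a median change of 0.85 over all probes. At an unadjusted p under 0.05 that fit had 11 members higher and 0 lower. Without scaling, low values were held at 1 common floor of 6.57 intensity units, which keeps the sizes of dim members small. Scaling to the spike controls gave 1 member higher and 2 lower, beside 190 higher and 85 lower of all 1346 probes and a median change over all probes of 0.04. Scaling to the 75th percentile gave 1 member higher and 6 lower, beside 115 higher and 236 lower of all probes and a median change of -0.16. MiR-1185-1-3p was higher in each of these fits, at 1.84 with no scaling, 1.85 with the spike controls and 1.66 with the 75th percentile.

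**Figure D4:**
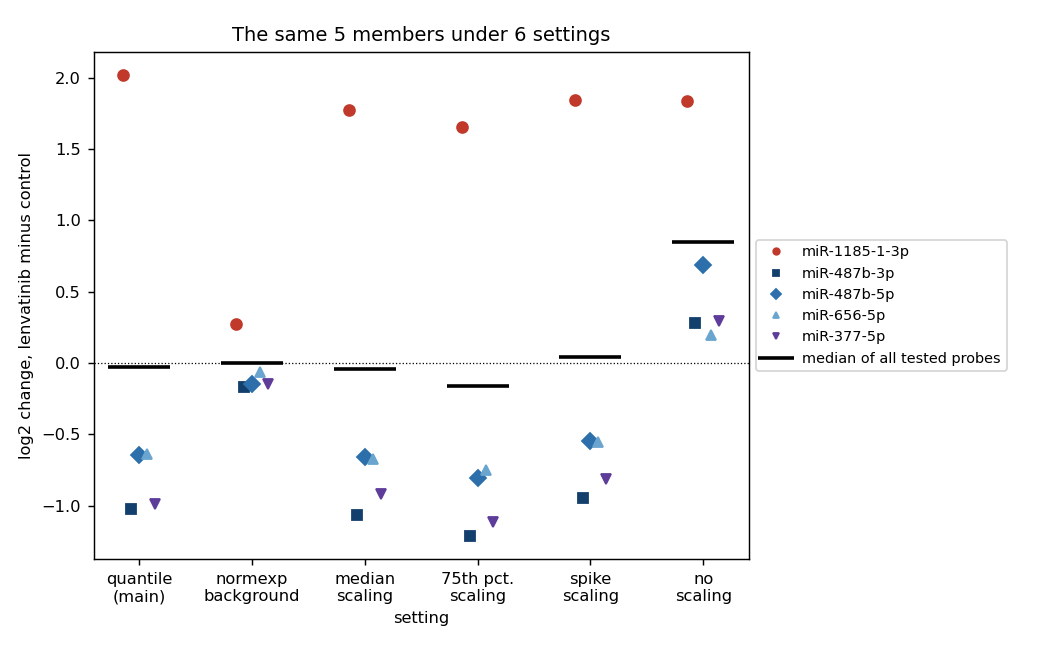
Log2 change, lenvatinib minus control, of the same 5 members under 6 settings (symbols), with the median change of all tested probes as a black bar. MiR-1185-1-3p is above the bar in every setting and at 0.27 with normexp correction, while the 4 other members are below the bar throughout but above 0 with no scaling.

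Among the members that did not pass, miR-409-3p and miR-654-3p came closest. MiR-409-3p had intensities of 11.7, 13.4, 12.02, 16.6 and 8.54 on lenvatinib replicates 1 to 5 and 8.72, 7.19, 6.97, 7.49 and 8.83 on control replicates 1 to 5. Its normalized groups did not overlap, but its log2 change of -0.61 ± 0.20 (SE) had a limma adjusted p of 0.0508 and passed downward in 7 of 27 alternatives. With no scaling it passed in the opposite direction, at 0.64 (adjusted p = 0.00540). MiR-654-3p was detected on 1 lenvatinib and 4 control arrays, with a log2 change of -0.62 ± 0.21 (SE, limma adjusted p = 0.0535). MiR-154-5p, at 5.11 to 12.6 on lenvatinib arrays and 4.27 to 7.78 on control arrays, had a log2 difference of -0.61 ± 0.28 (SE, limma adjusted p = 0.143).

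The members with the clearest signal over background did not pass. MiR-494-3p had intensities of 1330, 1152, 1303, 1142 and 1327 on lenvatinib replicates 1 to 5 and 617, 499, 642, 499 and 557 on control replicates 1 to 5. Its deposited values were thus all higher with lenvatinib, and its normalized values overlapped, at 9.62 ± 0.20 with lenvatinib and 9.78 ± 0.04 in control (log2, SD, n = 5 each). Its log2 difference was -0.16 ± 0.13 (SE, limma adjusted p = 0.445). MiR-370-3p, known to repress the fatty acid oxidation enzyme CPT1A in liver cells, had 33.7, 34.4, 32.6, 35.9 and 57.7 on lenvatinib replicates 1 to 5 and 16.1, 13.5, 16.9, 15.7 and 15.8 on control replicates 1 to 5. Its log2 change was -0.04 ± 0.14 (SE, limma adjusted p = 0.900), smaller than the spread between arrays.

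The other members detected on all 10 arrays also did not pass by limma. MiR-127-3p, which pairs with the RTL1 transcript and represses BCL6, had 8.37 to 22.6 on lenvatinib arrays and 4.08 to 6.42 on control arrays, with a log2 change of -0.03 ± 0.28 (SE, adjusted p = 0.954). MiR-134-5p, which represses LIMK1 in rat neurons, had 15.3 to 21.8 on lenvatinib arrays and 6.62 to 10.3 on control arrays, with a change of -0.13 ± 0.16 (adjusted p = 0.612). MiR-485-3p, a repressor of PPARGC1A, had a log2 difference of 0.09 ± 0.26 (adjusted p = 0.847). The log2 differences were 0.34 ± 0.18 for miR-412-3p (adjusted p = 0.214) and -0.25 ± 0.32 for miR-668-3p (adjusted p = 0.649). In all of these the normalized values of the groups overlapped. A p above the threshold does not show that a level was the same in both groups.

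Arms and hairpins of the cluster outside the 55 did not pass by limma either. Of 36 such probes, 15 were tested and 0 passed, where 12.1% of all probes tested were higher and 9.36% lower. At an unadjusted p under 0.05, 1 was higher and 1 lower, and the changes ran between -0.41 and 0.32 with a median of -0.06. MiR-487a-5p passed downward in 9 alternatives, among them normexp correction and scaling to the median, and with the 75th percentile miR-410-5p also did. MiR-494-5p passed upward with the authors' series table, where 159 of all 803 probes tested did. With no scaling 11 of these probes passed upward and 0 downward, beside 920 and 2 of all 1346 probes tested. Of the 36, 9 were detected on all 10 arrays. Of these, miR-494-5p, miR-410-5p and miR-323b-5p share the seed GGUUGUC, with log2 differences of 0.32, -0.41 and 0.13, none past the threshold.

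At the DIO3 edge of the domain, miR-1247-3p rose. It is read from the minus strand at chr14:101560326-101560349, beside DIO3 and outside the cluster, and was 1 of 4 probes at the edges of the domain, 3 of them tested. Its intensities were 41.8, 46.8, 47.9, 45.5 and 62.9 on lenvatinib replicates 1 to 5 and 7.24, 8.63, 5.87, 7.13 and 4.87 on control replicates 1 to 5. The groups did not overlap before or after normalization. The log2 change was 1.51 ± 0.16 (SE, limma adjusted p = 0.000146), and the call held in 27 of 27 alternatives, at 0.38 with normexp correction and 2.75 with no scaling. The other tested edge probes, miR-2392 at -0.22 and miR-770-5p, within MEG3, at 0.06, did not pass. MiR-1247-5p, the other arm of the MIR1247 hairpin, was detected on 1 control array, at 2.28, and on no lenvatinib array. It was not tested.

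Base composition differed between the probes called in each direction over the whole array. The median GC content was 63.6% among 146 probes called higher that have a RefSeq sequence and 52.4% among 111 called lower. MiR-1185-1-3p, at 40.9%, had a lower GC content than either median. Over 1171 tested probes the Spearman correlation of GC content with the log2 change was 0.22, and over the 22 tested members with a sequence it was -0.07, both descriptions of probes that share the same arrays.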

How the data were processed

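RNA of 10 HuH-7 samples, 5 with lenvatinib and 5 control, was labelled with Cy5 and hybridised to 1 single-colour array each, per the labels' protocols. Per the file headers, the authors deposited 3 linear intensities per probe, raw, background-subtracted and globally normalized. The values show that the authors subtracted the mean of the blanks, trimmed by 5% at each end, from raw intensity and left a cell empty where the raw value was not more than 2 SD above that mean. Scanner, slide and scan date: not given in the sources used here.

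Here the deposited subtracted intensity was used, spots marked NG were left out, and each undetected probe took its array's lowest detected value. Log2 values were quantile normalized. The 1346 probes detected on at least 5 of 10 arrays were tested with limma 3.58.1 in R 4.3.3 (lmFit and eBayes, two-sided), with Benjamini-Hochberg adjustment over all of them and a threshold of 0.05. Log2 changes are lenvatinib minus control. The fit was also run on simulated data with known changes. Those data had normal noise and no undetected values, so they do not represent members partly held at the floor. Alternatives covered background correction, scaling, filters, undetected values, NG spots, array weights, a replicate block and leaving out each array. The number of arrays limits the precision.

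The members and lists were chosen with earlier results of these data known. Text names every member that passed or was detected on all 10 arrays, the other arm of each hairpin with a passing member, and any other arm or edge probe that passed. Members with the next smallest p, those sharing a seed, and the near copies were named after their values were seen. Mature sequences and coordinates are RefSeq's, on GRCh38.p14. MiR-668-3p had no entry.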

Additional observations from a re-analysis of the deposited data

Results flagged for a closer look

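Among 48 groups of 5 arrays, the lenvatinib and the control values of each of the 23 tested members and of the number of members detected, 5 held an array far from the other 4 of its group, by a gap to its nearest neighbour of more than 0.71 of the group's range (log2 scale). For continuous values chance alone gives about 1 in 20 groups. That rate does not apply to 2 of these 5, in which the other 4 arrays are tied and any single detected value is far off by construction. Nor does it hold strictly for the lenvatinib group of miR-377-5p and the control group of miR-1185-1-3p, which include undetected values held at the floor. MiR-377-5p had a far-off array in both groups. Lenvatinib replicate 5 was at 1.626, the floor given to undetected probes, against 2.80 to 2.95 on the other lenvatinib arrays, and control replicate 2 was at 4.586, against 3.14 to 3.56 on the other control arrays. Both arrays moved the values apart in the direction of its call. That call was lost without either, as in every fit without 1 array except that without control replicate 5. MiR-1185-1-3p was at 2.590 on control replicate 5, against 1.63 to 1.85 on the other control arrays, and without that array its change was 2.20. MiR-654-3p was at 1.781 on lenvatinib replicate 4 and miR-329-3p at 1.875 on control replicate 2, in groups whose other 4 arrays were all undetected and at the floor of 1.63.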

How the results depend on the processing

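MiR-1185-1-3p stayed higher in all 25 alternatives that tested it. It was in neither the authors' series table nor the probes detected on all 10 arrays, which gave 0 members higher, while no scaling gave 10. Over all probes tested, these settings gave 159 of 803, 162 of 868 and 920 of 1346 higher, in that order. The members lower numbered 2 with normexp, with no background correction, with spike scaling and with no filter, and 0 with no scaling. In that order, the probes lower over the whole array numbered 132, 132, 85, 98 and 2, of 2565 tested with no filter and 1346 otherwise. Leaving out 1 array gave 2 to 4 lower and 1 higher, with 2 lower without lenvatinib replicate 2 or 3 or control replicate 1 or 3, and a difference of -0.45 to 3.3 in members detected per array. Of all 1346 probes, leaving out 1 array gave 130 to 184 higher and 90 to 149 lower, against 163 and 126. The fits with 2 members lower had 108, 111, 96 and 90 of all probes lower, in that order. Deviations of same-numbered arrays correlated at 0.114, 0.116, 0.140, 0.135 and 0.0008, over 0.1 in 4 of 5 pairs, and 3 of 5 lenvatinib arrays correlated best with the control of their number, a hint from the data. Not every pair passed 0.1, so the numbers were not taken as pairs. With the replicate block, 1 member was higher and 4 lower, beside 142 and 115 of all 1346 probes. Over all probes, scaling to the 75th percentile gave 115 higher and 236 lower, and undetected values left missing 90 and 92, against 163 and 126. With no scaling, signs turned for miR-127-3p (0.85), miR-370-3p (1.28), miR-494-3p (1.16), miR-134-5p (1.15), miR-487b-5p (0.69), miR-409-3p (0.64), miR-668-3p (0.62), miR-154-5p (0.46), miR-377-5p (0.29), miR-487b-3p (0.28) and miR-656-5p (0.20), as the construction of that setting leaves in the brightness difference. Changes near 0 turned elsewhere, none past the threshold. MiR-127-3p was at 0.0065 with normexp, 0.0068 with no background correction, 0.024 with spike scaling and 0.014 with the series table, and leaving out 1 array gave -0.30 to 0.11. MiR-370-3p was at 0.053 with spike scaling and at -0.14 to 0.016 without 1 array, and miR-485-3p at -0.11 with the 75th percentile, -0.019 with array weights and -0.084 to 0.26 without 1 array. Their cause was not tested. Most members lay near the negative controls, which limits what their sizes show.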

Other observations

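Spots that the files name as holding no probe, of which at most 85 were read on an array, passed the detection rule unevenly. The share above the limit was 60% on lenvatinib replicate 5 and 9.41% to 31.8% on the other 4 lenvatinib arrays, and it was 11.8% to 42.4% on the control arrays. The brightest such spot stood 166 intensity units over the blanks on lenvatinib replicate 5, the array that detected the fewest members and the fewest of all probes. What these spots carry is not stated in the sources used here.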
